A study of Nicotiana benthamiana with 8 samples.

Results

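The contigs described here carry the names or symbols of CASP membrane proteins, dirigent proteins, the kinase SGN1 and the peroxidase PER64. They are grouped as the Casparian strip machinery, although a dirigent annotation alone does not place a contig's protein at the strip. Among the 3305 contigs of the deposited table, 38 were chosen by annotation, with earlier results of these data known. Either an annotation named a Casparian strip or a dirigent protein, or the Arabidopsis symbol was AT5G15290 (CASP5), AT4G23690 (DIR6), AT1G61590 (SGN1) or AT5G42180 (PER64). The 38 contigs comprised 10 CASP, 19 dirigent, 3 SGN1 and 6 PER64 contigs. Leaves of 4-week-old Nicotiana benthamiana, a wild tobacco that takes up genes delivered by Agrobacterium, were infiltrated either with MdMYB68, an apple MYB factor fused to GFP under the constitutive CaMV 35S promoter, or with the empty vector p103. Both mixtures also carried p19, a viral suppressor of gene silencing. Each group had 4 biological replicates, each a pool of 3 plants with 4 leaves per plant, sampled 4 days after infiltration. RNA came from infiltrated leaves, so the libraries do not separate cell types, and reads of the apple gene itself were not analysed here.

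The Casparian strip is a ring of lignin-based wall material that seals the space between neighbouring cells of the root endodermis. In Arabidopsis, CASP proteins form a membrane scaffold at the site of the strip and gather the enzymes that lay down lignin there. Dirigent proteins guide the coupling of phenolic radicals, PER64 is one of the peroxidases that make these radicals, and SGN1 is a cytoplasmic kinase that relays the signal of an incomplete barrier. The transcription factor MYB36 switches on many of these genes, and the strip is best known from roots, not from leaf tissue.

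Before deposit the authors reduced the table to contigs that differed between these same libraries, by at least 4-fold and by at least 5 RPKM at an FDR under 0.001. A direction or a test on it is therefore no independent evidence of a difference, and contigs below those limits were not analysed here. Mapped reads ranged over 31244291 to 34080202 in the MdMYB68 libraries and over 29371282 to 32279582 in the empty vector libraries. Of these, 17.5% to 18.7% fell on the listed contigs in MdMYB68 leaves and 6.92% to 8.76% in empty vector leaves. A level below is the number of reads per kilobase of contig and per 1000000 reads mapped in the library, and all levels are given in the order of replicates 1 to 4. Total gene reads were compared with edgeR's quasi-likelihood test, with Benjamini-Hochberg adjustment over all 3305 contigs and a threshold of 0.001. Standard errors beside a log2 fold change come from this test, and for contigs with few reads they may understate the counting error. Against empty vector groups without a read, the fold is a lower bound set at 3 reads over the group, and against 1 to 3 reads it is given with its 95% exact Clopper-Pearson interval. Such bounds and intervals cover counting error only.

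All 38 contigs had higher levels in MdMYB68 leaves than in empty vector leaves, and in each of them the 4 levels of one group lay apart from the 4 of the other. Together they took 1.09%, 1.11%, 1.24% and 1.17% of all mapped reads in MdMYB68 libraries, against 0.00477%, 0.00425%, 0.00298% and 0.00343% in empty vector libraries. The mean share was 1.16% ± 0.0677 in MdMYB68 leaves and 0.00386% ± 0.000803 in empty vector leaves (SD, n = 4 each), a ratio of 299.6. Among the reads on listed contigs, the 38 held 6.43% in MdMYB68 leaves and 0.0508% in empty vector leaves, while they made up 1.15% of the contigs. With edgeR's test 38 of 38 were called higher in MdMYB68 leaves. Of all contigs in the preselected table, 83.4% were called higher. Most listed contigs thus gave the same call, and the count was fixed in part by the selection. All 2839 listed contigs with a higher mean in MdMYB68 leaves (85.9%) had no overlap between the groups. For contigs that were higher, the separation was therefore set by the selection. With uniquely placed reads alone, 34 of the 38 had such reads and 32 were called higher, where 80.3% of the 2907 listed contigs with such reads were. The median fitted log2 fold change was 9.49 over the 38 contigs and 3.34 over all listed contigs. No empty vector read was found for 7 of the 38 contigs (18.4%), and 5.42% of all listed contigs were without one.

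**Figure D1:**
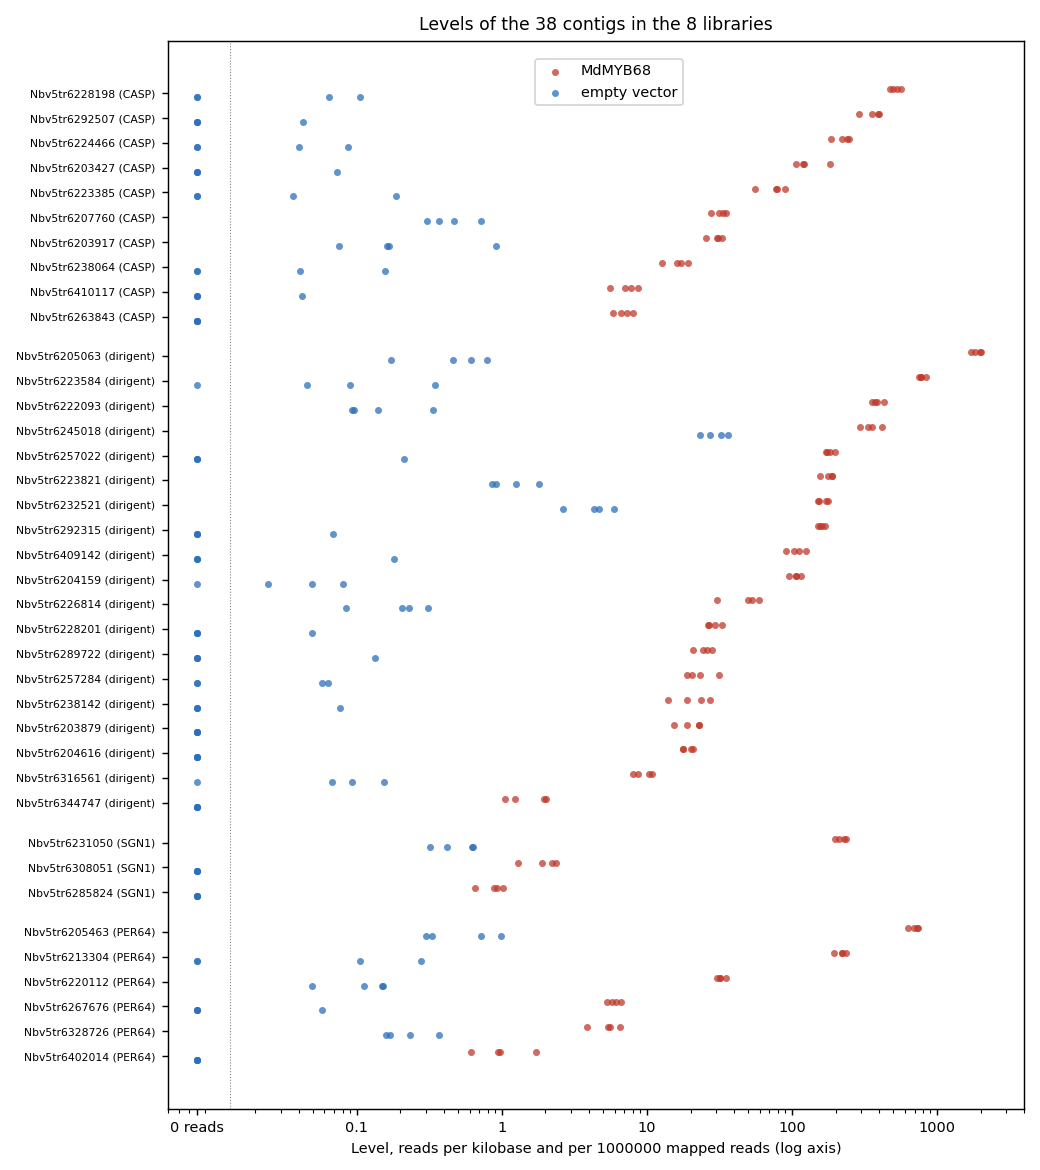
Level of each of the 38 contigs in each library, in reads per kilobase and per 1000000 mapped reads on a log axis, with libraries without a read placed left of the dotted line. Red points are the 4 MdMYB68 libraries and blue points the 4 empty vector libraries; no contig has overlapping groups, and the dirigent contig Nbv5tr6245018 has the highest empty vector level, 29.9 on average.

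Leaf tissue was checked by chlorophyll a-b binding proteins and the Rubisco small subunit. All 44 listed contigs of these 2 kinds had reads in both groups, and their summed level ran between 6698 and 10697 in MdMYB68 leaves and between 29674 and 43609 in empty vector leaves. With edgeR's test 43 of them were called lower in MdMYB68 leaves, where 12.4% of all listed contigs were called lower. The remaining one, Nbv5tr6279798, had a fitted log2 change of -2.29 with an adjusted p of 0.002 in edgeR's test. These 44 contigs are listed because they differed by at least 4-fold, so that they changed was fixed by the selection. Their median fitted log2 change was -2.08, near that limit. Chlorophyll a-b binding and Rubisco small subunit contigs that changed less are not listed and were not analysed here. The lower leaf markers moved together with the higher levels of every group below, and their part in those results was not tested. In such bulk tissue, fewer cells of a type and less RNA per cell cannot be told apart. A short symbol list for xylem vessels, such as XCP1 or IRX3, matched no listed contig, which in a preselected table gives nothing on their levels. Other secondary wall genes, such as IRX9 and IRX12, were listed but were not in that list and were not analysed here.

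Reads on the 10 CASP contigs, the scaffold of the strip, made up 0.122% ± 0.0107 of mapped reads in MdMYB68 leaves and 9.34e-05% ± 3.44e-05 in empty vector leaves (SD, n = 4 each), a ratio of 1305. Of the 10 contigs, 5 carried the symbol of CASP5, 4 that of CASP1 (AT2G36100), and 1 none. For some of them an annotation named a CASP protein of another number than the symbol. All 10 were called higher, where 83.4% of all listed contigs were. Their fitted log2 fold changes lay between 6.10 and 14.53, with a median of 9.77. With log2 read ratios and the contig without empty vector reads at its bound, the median was 9.99.

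The CASP contig with the highest level was Nbv5tr6228198, of 968 bp and annotated as Casparian strip membrane protein 1. Its levels were 533, 475, 563 and 499 in MdMYB68 leaves and 0.106, 0.0646, 0 and 0 in empty vector leaves. The empty vector values stand for 3, 2, 0 and 0 reads, so no empty vector library had more than 3 reads of this contig. Mean levels were 517 ± 38.5 in MdMYB68 leaves and 0.0425 ± 0.0519 in empty vector leaves (SD, n = 4 each), and the fitted log2 change was 13.46 (SE 0.35), with an adjusted p of 3.9e-10.

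Nbv5tr6292507, annotated as Casparian strip membrane protein 5, had levels of 290.3, 359, 399 and 389 in MdMYB68 leaves. In empty vector leaves a single read was counted, in replicate 1, which gave levels of 0.0430, 0, 0 and 0. The ratio of reads was 35178, with a counting interval of 6313 to 1389489.6, and edgeR's adjusted p was 2.7e-10. Only 61.2% of its MdMYB68 reads were placed uniquely, so part of its level could belong to a near-identical contig. A second contig with the CASP5 symbol, Nbv5tr6224466, was annotated as Casparian strip membrane protein 2-like and had fully unique reads. Its levels were 187, 222, 246 and 238 in MdMYB68 leaves and 0.0869, 0.0399, 0 and 0 in empty vector leaves. Both these contigs, of the 5 with the CASP5 symbol, were lowest in MdMYB68 replicate 1 and had no read in empty vector replicates 3 and 4. For Nbv5tr6224466 the ratio was 7226, with an interval of 2472 to 35040.3 and an adjusted p of 3.8e-10 in edgeR's test.

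Nbv5tr6203427 was a second abundant CASP1 contig, with levels of 118, 121, 182 and 107 in MdMYB68 leaves and 0, 0, 0 and 0.0735 in empty vector leaves. MdMYB68 replicate 3 stood above the other replicates, and the only empty vector reads, 2 in number, came from replicate 4. The ratio was 6865, with an interval of 1900.1 to 56692 and an edgeR adjusted p of 1.6e-09. Nbv5tr6207760, also with the CASP1 symbol, had the smallest fitted change of the group. Levels of this contig were 31.5, 33.4, 35.3 and 27.9 in MdMYB68 leaves and 0.469, 0.369, 0.718 and 0.305 in empty vector leaves, so it had reads in all 8 libraries. The means of 32.0 ± 3.14 in MdMYB68 leaves and 0.465 ± 0.182 in empty vector leaves (SD, n = 4 each) differed by 68.7-fold, with a fitted log2 change of 6.10 (SE 0.24) and an adjusted p of 3.8e-09 in edgeR's test.

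In empty vector leaves Nbv5tr6207760 held 50.4% of the 115 CASP reads, whereas Nbv5tr6228198 held 41.0% of the 157376 CASP reads in MdMYB68 leaves. The most abundant CASP contig was thus a different one in each group. The remaining 5 CASP contigs were Nbv5tr6223385, Nbv5tr6203917, Nbv5tr6238064, Nbv5tr6410117 and Nbv5tr6263843, with mean MdMYB68 levels between 6.96 and 75.4. Nbv5tr6263843, a short contig of 330 bp without an Arabidopsis symbol, had no empty vector read and was at least 94.8-fold higher in MdMYB68 leaves. Its call was lost with uniquely placed reads, which made up 0.673% of its reads (log2 change 2.30, edgeR adjusted p = 0.22). Without empty vector replicate 1, which had 5 of the 6 empty vector reads of Nbv5tr6223385, the fitted log2 changes were 12.22 for this contig, 14.28 for Nbv5tr6228198, 13.56 for Nbv5tr6224466, 16.15 for Nbv5tr6292507 and 10.56 for Nbv5tr6410117, against 10.36, 13.46, 12.60, 14.53 and 8.94 with all libraries. The group median without it was 11.34. Where no empty vector read was left, as for Nbv5tr6292507 and Nbv5tr6410117, these values depend on the prior count of the fit and set no bound. Leaving out empty vector replicate 2 gave 7.76 for Nbv5tr6203917 in place of 6.47, leaving out replicate 3 gave 9.87 for Nbv5tr6238064 in place of 8.27, and leaving out replicate 4 gave 14.78 for Nbv5tr6203427 in place of 12.44. The value of 14.78 also depends on the prior count, because no empty vector read of Nbv5tr6203427 was left.

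Dirigent proteins made up the largest share of the reads. The 19 contigs took 0.864% ± 0.0576 of mapped reads in MdMYB68 leaves and 0.00356% ± 0.000737 in empty vector leaves (SD, n = 4 each), a ratio of 242.8. All 19 were called higher, where 83.4% of all listed contigs were. Their fitted log2 changes lay between 3.55 and 12.90, with a median of 10.84. With log2 read ratios and the 3 contigs without empty vector reads at their bounds, the median was 9.63. By Arabidopsis symbol, 5 contigs were AT1G07730, 3 were AT2G39430, 3 were AT3G24020, 2 each were AT4G13580, AT2G21100 and AT1G65870, 1 was AT4G23690 (DIR6, which in Arabidopsis takes part in the formation of the lignan pinoresinol), and 1 had none. In the other annotation column most of them were named after disease resistance response protein 206, a dirigent protein of pea.

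One dirigent contig, Nbv5tr6205063, had the highest mean level in MdMYB68 leaves of all 3305 listed contigs, and ranked 1976 in empty vector leaves. It was annotated as dirigent protein 24-like with the symbol AT2G39430. Its levels were 1709, 1815, 2018 and 1971 in MdMYB68 leaves and 0.788, 0.615, 0.172 and 0.460 in empty vector leaves. The highest empty vector level was thus below 1, and the replicates of each group stayed close together on the scale of that difference. Means were 1878 ± 142 in MdMYB68 leaves and 0.509 ± 0.262 in empty vector leaves (SD, n = 4 each), a fold of 3691 and a fitted log2 change of 11.85 (SE 0.44), with an adjusted p of 2.6e-09 in edgeR's test. This contig alone held 47.1% of the reads of the 38 contigs in MdMYB68 leaves, and 99.9% of its reads were placed uniquely.

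Nbv5tr6223584, annotated as dirigent protein 25-like, came next. Levels of 773, 775, 845 and 748 were found in MdMYB68 leaves and of 0.345, 0.0452, 0 and 0.0897 in empty vector leaves. Its MdMYB68 replicates were close to each other, with a coefficient of variation of 5.34%, and 14 of its 20 empty vector reads came from replicate 1. The fold of the means was 6546 and the fitted log2 change 12.67 (SE 0.50), with an edgeR adjusted p of 3.5e-09; without empty vector replicate 1 the log2 change was 13.97. Nbv5tr6222093, the second abundant contig with the symbol AT2G39430, had levels of 376, 356, 428 and 385 in MdMYB68 leaves and 0.0961, 0.335, 0.0937 and 0.140 in empty vector leaves. All 8 libraries had reads of it, and empty vector replicate 2 had 19 of the 37 in that group. The fold was 2324, the fitted log2 change 11.15 (SE 0.33) and the adjusted p 6.7e-10 in edgeR's test, and without empty vector replicate 2 the log2 change was 11.74.

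The fourth by level, Nbv5tr6245018, annotated as dirigent protein 21-like (AT1G65870), had the smallest change of all 38 contigs. Its levels were 293, 336, 355 and 420.1 in MdMYB68 leaves and 36.2, 32.6, 23.2 and 27.5 in empty vector leaves. Its empty vector level was the highest of the 38 contigs, at rank 209 of all listed contigs. Mean levels were 351 ± 52.9 in MdMYB68 leaves and 29.9 ± 5.70 in empty vector leaves (SD, n = 4 each), a fold of 11.7 and a fitted log2 change of 3.55 (SE 0.18), with an adjusted p of 2e-08 in edgeR's test. When scaling factors were computed on the listed contigs themselves, its log2 change was 0.61 with TMM (edgeR adjusted p = 0.0085) and 0.63 with DESeq2 (adjusted p = 0.0011), and neither passed the threshold.

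Nbv5tr6245018 held 80.5% of the dirigent reads in empty vector leaves. Without it, the other 18 dirigent contigs took 8307 reads per 1000000 mapped reads in MdMYB68 leaves and 6.93 in empty vector leaves, a ratio of 1198. The other contig with the symbol AT1G65870, Nbv5tr6232521, was also among the smaller changes, with means of 163 ± 12.1 in MdMYB68 leaves and 4.40 ± 1.36 in empty vector leaves (SD, n = 4 each) and a fold of 37.1. Together the contigs of AT1G65870 had 59582 reads in MdMYB68 leaves and 3956 in empty vector leaves. The 5 contigs of AT1G07730, in comparison, had 205346 reads in MdMYB68 leaves and 39 in empty vector leaves, and the 3 contigs of AT2G39430 had 795002 in MdMYB68 leaves and 225 in empty vector leaves. Dirigent contigs thus ranged from ones with reads in every library of both groups to ones with hardly any read without MdMYB68.

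The 3 dirigent contigs without any empty vector read were Nbv5tr6203879, Nbv5tr6204616 and Nbv5tr6344747, which were at least 654-fold, 753-fold and 65.4-fold higher in MdMYB68 leaves. Nbv5tr6344747 had no uniquely placed read, and its call was lost with TMM factors on the listed contigs (log2 change 7.86, edgeR adjusted p = 0.0016). Nbv5tr6226814, the DIR6 contig, averaged 48.1 ± 12.6 in MdMYB68 leaves and 0.208 ± 0.0935 in empty vector leaves (SD, n = 4 each), a fold of 232. MdMYB68 replicate 4, at 30.3, was the lowest of its 4 replicates. Further members were Nbv5tr6257022, Nbv5tr6223821, Nbv5tr6292315, Nbv5tr6409142, Nbv5tr6204159, Nbv5tr6228201, Nbv5tr6289722, Nbv5tr6257284, Nbv5tr6238142 and Nbv5tr6316561, with mean MdMYB68 levels between 9.49 and 182.8. Some of their folds rested on one empty vector library, and with that library left out the fitted values depend on the prior count. Without replicate 1 the fitted log2 change of Nbv5tr6257022 was 15.67 and that of Nbv5tr6409142 was 14.94, against 11.72 and 11.19 with all libraries. Without replicate 2 that of Nbv5tr6228201 was 13.18 in place of 10.84, without replicate 3 those of Nbv5tr6292315 and Nbv5tr6238142 were 15.25 and 12.17 in place of 12.90 and 9.81, and without replicate 4 that of Nbv5tr6289722 was 13.09 in place of 9.37.

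**Figure D2:**
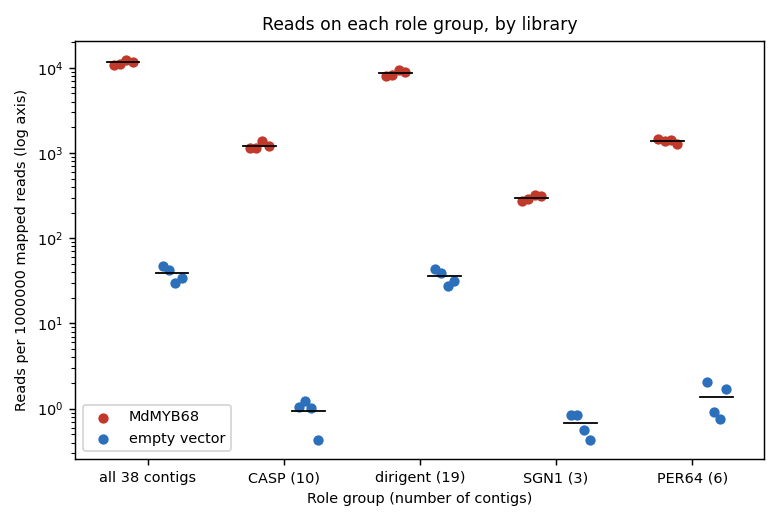
Reads on each role group per 1000000 mapped reads, on a log axis. Points are libraries, with the 4 MdMYB68 libraries left of the 4 empty vector libraries in each group, and black lines are means; the dirigent contigs average 8643 in MdMYB68 leaves and 35.6 in empty vector leaves, and no role group has overlapping libraries.

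The symbol of SGN1, the kinase of the barrier surveillance pathway, was carried by 3 contigs. They took 0.0298% ± 0.00221 of mapped reads in MdMYB68 leaves and 6.73e-05% ± 2.08e-05 in empty vector leaves (SD, n = 4 each), a ratio of 442.9. Nearly all of these reads, 98.6% in MdMYB68 leaves and 100% in empty vector leaves, fell on Nbv5tr6231050. Both annotation columns named this contig serine/threonine-protein kinase At5g01020, and only its symbol was that of SGN1. Its levels were 198, 211, 234 and 229.9 in MdMYB68 leaves and 0.633, 0.627, 0.419 and 0.322 in empty vector leaves. All 8 libraries had reads of it, and replicates varied by 7.67% in MdMYB68 leaves. The means of 219 ± 16.8 in MdMYB68 leaves and 0.501 ± 0.155 in empty vector leaves (SD, n = 4 each) differed by 437-fold, with a fitted log2 change of 8.77 (SE 0.22) and an adjusted p of 3.3e-10 in edgeR's test.

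Both other SGN1 contigs came from the alternate transcript set and had no empty vector read. For both, 1 annotation column named At5g01020 and the other At1g61590. Nbv5tr6308051 had levels of 2.23, 2.37, 1.30 and 1.89 in the MdMYB68 libraries and was at least 121-fold higher there. Nbv5tr6285824 had levels of 0.656, 0.925, 0.880 and 1.02 in the MdMYB68 libraries and was at least 53.6-fold higher. Few of these reads were unique, with none placed uniquely for Nbv5tr6308051 and 34.5% for Nbv5tr6285824. All 3 SGN1 contigs were called higher, with edgeR adjusted p of 3.3e-10, 3e-06 and 4.2e-06, where 83.4% of all listed contigs were called higher. The median fitted log2 change was 8.77, and the median log2 read ratio was 6.92 with both contigs at their bounds.

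PER64, a peroxidase that in Arabidopsis acts with the CASP scaffold in lignin polymerisation, had 6 contigs with 0.139% ± 0.00925 of mapped reads in MdMYB68 leaves and 0.000135% ± 6.18e-05 in empty vector leaves (SD, n = 4 each), a ratio of 1027. All 6 were called higher, where 83.4% of all listed contigs were. Their fitted log2 changes lay between 4.47 and 11.15. The median was 8.11, or 8.37 as log2 read ratios with the contig without empty vector reads at its bound. Without empty vector replicate 2 the median of the fitted changes was 8.95. Reads of these contigs were shared: none of the 6 had 90% or more uniquely placed reads. With uniquely placed reads alone the group took 0.0450% ± 0.00395 of mapped reads in MdMYB68 leaves and 5.62e-05% ± 2.09e-05 in empty vector leaves (SD, n = 4 each), a ratio of 800.9.

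The main PER64 contig, Nbv5tr6205463, had levels of 739.9, 692, 733 and 632 in MdMYB68 leaves and 0.981, 0.329, 0.303 and 0.718 in empty vector leaves. It ranked 27 in MdMYB68 leaves and held 71.5% of the PER64 reads there, and 26.1% of its reads were unique. Means were 699 ± 49.5 in MdMYB68 leaves and 0.583 ± 0.326 in empty vector leaves (SD, n = 4 each), the fitted log2 change was 10.23 (SE 0.36) and the adjusted p 1.8e-09 in edgeR's test. Nbv5tr6213304 had levels of 234, 222, 221 and 196 in MdMYB68 leaves and 0.277, 0, 0 and 0.105 in empty vector leaves. Empty vector replicates 2 and 3 had no read of it, while replicate 1 had 12 of 17 in that group. The fitted log2 change was 11.15 (SE 0.51), with an edgeR adjusted p of 9.5e-09, and 12.47 without empty vector replicate 1.

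Nbv5tr6220112 was the PER64 contig with the steadiest MdMYB68 replicates, at 32.1, 35.0, 30.2 and 31.8 in MdMYB68 leaves and 0.0494, 0.151, 0.112 and 0.150 in empty vector leaves. The fold of the means was 279, the fitted log2 change 8.08 (SE 0.22) and the edgeR adjusted p 4.8e-10. Nbv5tr6267676 had levels of 5.74, 6.59, 6.12 and 5.30 in MdMYB68 leaves and 1 read in all of the empty vector group, in replicate 2, for levels of 0, 0.0580, 0 and 0. This low contig was 397-fold higher, with an interval of 70.8 to 15699 and an edgeR adjusted p of 7.9e-08. Its call was lost with uniquely placed reads (log2 change 5.32, edgeR adjusted p = 0.0016), and without empty vector replicate 2 its log2 change was 9.66 in place of 8.06. No empty vector read was then left, so the value of 9.66 depends on the prior count of the fit.

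Nbv5tr6328726 changed least among the PER64 contigs, with levels of 5.62, 5.38, 3.89 and 6.54 in MdMYB68 leaves and 0.233, 0.161, 0.170 and 0.371 in empty vector leaves. The groups lay apart in every replicate, by 22.9-fold in the means, and the fitted log2 change was 4.47 (SE 0.34), with an adjusted p of 3.8e-07 in edgeR's test. With TMM factors on the listed contigs it was 1.56 (edgeR adjusted p = 0.0029). Nbv5tr6402014 had no empty vector read and no uniquely placed read, and was at least 45.7-fold higher in MdMYB68 leaves. Its call was lost with the same TMM factors (log2 change 7.34, edgeR adjusted p = 0.0069).

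**Figure D3:**
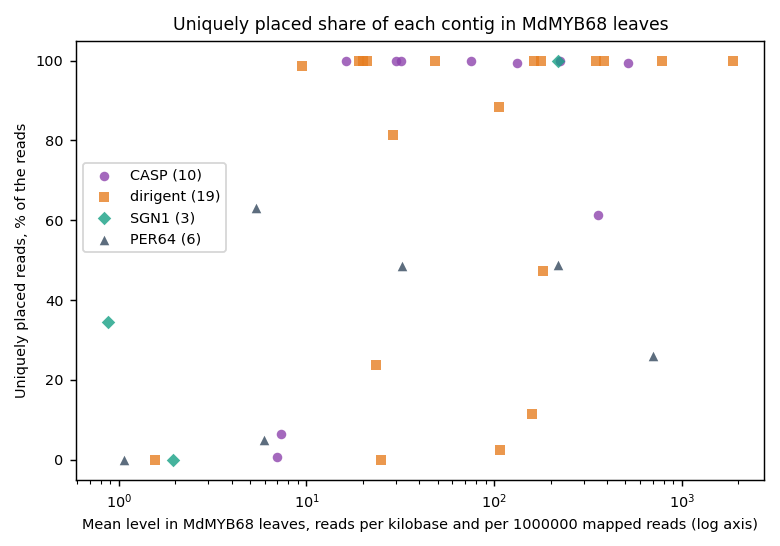
Share of reads placed uniquely against the mean level in MdMYB68 leaves on a log axis, one point per contig and a symbol per role group. Of the 38 contigs, 19 have at least 90% unique reads, 8 have under 10%, and the PER64 contigs reach at most 63.0%.

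Replicates of the MdMYB68 group varied by a median coefficient of variation of 12.3% over the 38 contigs, between 4.75% and 43.6%, with a median of 14.5% over all listed contigs. Levels were highest in MdMYB68 replicate 3 for 22 of the 38 contigs, for 8 of the 10 CASP and 13 of the 19 dirigent contigs but for 0 of the 6 PER64 contigs. Among the 31 contigs with any empty vector read, replicate 1 was the highest of that group for 16. Of the 38 contigs, 23 were primary and 15 alternate transcripts of the transcriptome. Mean MdMYB68 levels above 100 were found for 17 of the 38 contigs, against 284 of the 3305 listed contigs (8.59%), and mean empty vector levels under 1 for 35 of the 38, against 52.3% of the listed contigs.

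Other genes of the pathway were read from the same fit, and their counts stand beside the 83.4% of all listed contigs that were called higher in this preselected table. A list called higher in full is therefore near that background, and nothing particular to a list is read from its count. The regulators of RAX type, with the symbols MYB36 and MYB84, had 6 listed contigs, all called higher in MdMYB68 leaves against that background of 83.4%, with a median log2 change of 11.38. The highest, Nbv5tr6218132 (MYB84), had levels of 581, 547, 598 and 519.6 in MdMYB68 leaves and 0.177, 0.139, 0.247 and 0.253 in empty vector leaves, with a fitted log2 change of 11.40 (SE 0.21) and an edgeR adjusted p of 2.2e-10. Its 4 MdMYB68 libraries were within a narrow range and far above the empty vector libraries. Uniquely placed reads made up 98.2% of its MdMYB68 reads, 91.8% of those of Nbv5tr6218321 (MYB36) and 99.98% of those of Nbv5tr6342855 (MYB84). They made up only 0% for Nbv5tr6222270 (MYB36), 0.145% for Nbv5tr6222646 (MYB84) and 0.245% for Nbv5tr6222647 (MYB84).

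Receptor and peptide genes of the surveillance pathway, GSO1 (SGN3 in Arabidopsis, the receptor) and AT2G16385 (the peptide CIF1), had 9 contigs, all called higher where 83.4% of all listed contigs were, with a median log2 change of 4.82 and low levels. The highest, Nbv5tr6390754 (GSO1), averaged 10.7 ± 0.608 in MdMYB68 leaves and 0.480 ± 0.195 in empty vector leaves (SD, n = 4 each), with levels of 10.4, 10.0, 11.4 and 10.8 in MdMYB68 leaves and 0.329, 0.302, 0.591 and 0.698 in empty vector leaves. NADPH oxidases, which supply the peroxidases with reactive oxygen, had 6 contigs, all called higher against the same background, with log2 changes between 6.50 and 7.80. All 6 were annotated as respiratory burst oxidase homolog protein E, whereas the oxidase known for the strip in Arabidopsis is RBOHF. Of these, Nbv5tr6214996 was highest, with levels of 66.5, 68.0, 69.8 and 56.6 in MdMYB68 leaves and 0.779, 0.476, 0.708 and 0.406 in empty vector leaves. The receptor contigs thus stayed at lower levels in MdMYB68 leaves than the main SGN1 contig, while both groups were close to 0 in empty vector leaves.

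Peroxidases of the strip other than PER64, with the symbols RCI3 (PER3), AT1G44970 (PER9) and AT5G66390 (PER72), had 19 contigs, all called higher where 83.4% of all listed contigs were, with a median log2 change of 8.28. Nbv5tr6220770 (RCI3) had the highest levels, 1092, 1083, 1237 and 1159 in MdMYB68 leaves and 2.02, 1.58, 3.62 and 1.82 in empty vector leaves. Its MdMYB68 mean of 1143 stood above that of the main PER64 contig, 699. Uclacyanins, small copper proteins of the wall, had 4 contigs, all called higher against that background with a median of 8.93, led by Nbv5tr6232053 (UCC3) with levels of 1029, 888, 1057 and 1107 in MdMYB68 leaves and 2.10, 1.13, 0.776 and 1.61 in empty vector leaves. LAC3, a laccase found at the strip, had 2 contigs, both called higher against the same 83.4%. Nbv5tr6242242 had levels of 983, 543, 860.5 and 829.7 in MdMYB68 leaves, with replicate 2 lowest, and 0.739, 0.647, 0.589 and 0.474 in empty vector leaves. Contigs annotated as EXO70A1, an exocyst subunit that positions the CASP domain, were 2 in number and both called higher, again beside 83.4% of all listed contigs, with Nbv5tr6239145 at 13.3, 11.7, 13.0 and 11.2 in MdMYB68 leaves and 0.150, 0, 0.292 and 0.170 in empty vector leaves, although its Arabidopsis symbol was EXO70G1.

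CASP-like proteins, relatives of the CASP scaffold that are found beyond the endodermis, had 11 contigs, of which 9 were called higher and 2 lower, where 83.4% of all listed contigs were called higher and 12.4% lower. They had a median log2 change of 3.29, close to the 3.34 of all listed contigs. Nbv5tr6409197 had the highest levels, 140.3, 174, 194 and 187 in MdMYB68 leaves and 0, 0.326, 0 and 0 in empty vector leaves. In 1 annotation column it had the same name, CASP-like protein SDM1_58t00016, as Nbv5tr6292507 and Nbv5tr6224466, which carry the CASP5 symbol. Its unique share in MdMYB68 leaves was 61.5%, beside 61.2% for Nbv5tr6292507, and whether these contigs share reads was not tested. Nbv5tr6239092, annotated as CASP-like protein 4D1, fell to 14.6, 25.5, 24.2 and 25.5 in MdMYB68 leaves, against 138, 62.8, 106 and 121 in empty vector leaves, with a fitted log2 change of -2.25 (SE 0.26) and an adjusted p of 1e-05 in edgeR's test. Nbv5tr6213107, annotated as CASP-like protein 1E2, had levels of 1.84, 2.17, 0.847 and 1.76 in MdMYB68 leaves and 6.60, 8.54, 7.85 and 6.49 in empty vector leaves, with a fitted log2 change of -2.15 (SE 0.29) and an edgeR adjusted p of 3e-05. Both were lower in all 4 MdMYB68 libraries than in any empty vector library, a separation favoured by the selection of the table. The share of all listed contigs that were lower without overlap is not given here.

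Directions in these lists held under the other scalings except in 3 contigs. With TMM factors on the listed contigs the log2 changes of Nbv5tr6203724 (CASP-like), Nbv5tr6231656 (LAC3) and Nbv5tr6289899 (GSO1) turned to -0.23, -0.61 and -0.63, and with DESeq2 at its own size factors to -0.20, -0.58 and -0.60, against 2.72, 2.35 and 2.32 in the fit reported. Many reads of the leading pathway contigs were not placed uniquely. The unique share in MdMYB68 leaves was 15.2% for Nbv5tr6390754, 35.7% for Nbv5tr6214996, 49.4% for Nbv5tr6220770, 46.1% for Nbv5tr6232053 and 61.5% for Nbv5tr6409197.

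**Figure D4:**
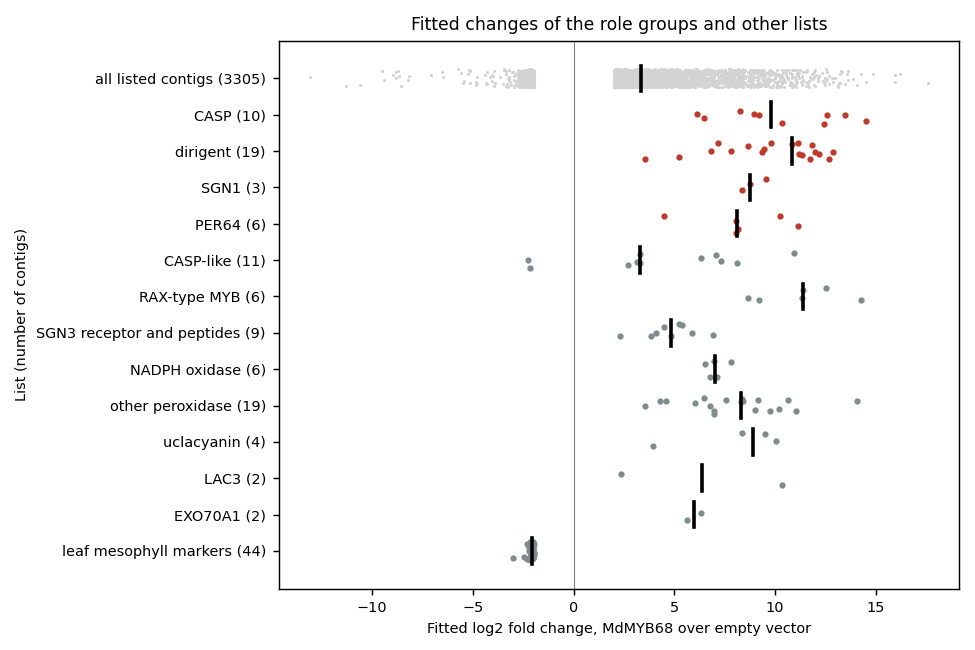
Fitted log2 fold change of MdMYB68 over empty vector for every listed contig in grey at the top, the 4 role groups in red, and the pathway and leaf marker lists in dark grey, with black lines at the medians. The gap around 0 comes from the selection of the table; all red points are above 0, and the medians run from 8.11 (PER64) to 10.84 (dirigent).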

How the data were processed

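The authors sequenced 8 libraries, 4 per group, as paired-end reads of 75 bases, and aligned the trimmed reads with CLC Genomics Workbench to 2 reference sets of N. benthamiana transcripts, primary and alternate. Deposited counts are of 2 kinds, the total gene reads and the uniquely placed reads of each contig in each library. How reads with several placements were assigned is not given in the sources used here. The deposited RPKM values are total gene reads per kilobase and per 1000000 reads of the set, primary or alternate, that the contig belongs to. The table also holds the authors' RPKM difference, fold change, its log2, p-value and FDR, which were not used. The number of unused columns of other libraries was 0. No coordinates are given for contigs, and no sequences were printed.

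Library totals were recovered from the deposited RPKM, read count and contig length, which gave back all 3305 RPKM values in each library within a relative tolerance of 1e-04. Primary and alternate totals were added and used as library sizes, with normalization factors of 1. Levels use the same total. Total gene reads were fitted with edgeR 4.0.16 (quasi-likelihood) in R 4.3.3, with no covariates. The standard error is the log2 change over the square root of F. The fit was tested on simulated counts. Alternatives were uniquely placed reads, TMM factors, DESeq2 1.42.0, reference set totals, totals without the listed contigs, limma 3.58.1 on log2 RPKM with a pseudocount of 1 or 0.1, contigs with a mean of at least 10 reads, a threshold of 0.05, the replicate number as a block, and each library left out in turn. No 2 libraries were alike within sampling noise. Python 3.11.15 (numpy 2.4.6, pandas 2.3.3, scipy 1.17.1, matplotlib 3.10.9) was used for ratios, intervals and figures.

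The members, lists and tests were chosen with earlier results of these data known. Levels per library are given, in each role group, for the 4 contigs highest in MdMYB68 leaves, the one with the smallest log2 change, and any lower or not called. Of each pathway list they are given for the highest contig and any lower or not called, with the leaf markers summed. Other contigs were named after their values were seen.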

Additional observations from a re-analysis of the deposited data

Results flagged for a closer look

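Among 44 groups of 4 values tested, the levels of the named contigs and the shares of the role groups in MdMYB68 and in empty vector leaves, 3 held a library far from the other 3. All 3 were levels in empty vector leaves where 3 libraries had no read, so that the gap to the nearest library was the whole range (a ratio of 1). They were Nbv5tr6292507 with 1 read in replicate 1, Nbv5tr6203427 with 2 reads in replicate 4, and Nbv5tr6267676 with 1 read in replicate 2. No MdMYB68 group of values was among them.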

How the results depend on the processing

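All 38 contigs kept a higher level in MdMYB68 leaves under every alternative that gave a value. The number called was 38 with DESeq2 at fixed size factors, with reference set totals and with totals without the listed contigs. It was also 38 with limma, with a mean of at least 10 reads, at an adjusted p under 0.05, and without any single library. At an adjusted p under 0.05 all 3305 listed contigs were called, so that count was fixed by the selection. The other settings called 3190, 3169 and 3179 of all listed contigs in this order, then 3245 and 3092 with limma (pseudocounts 1 and 0.1). With a mean of at least 10 reads 3136 of 3272 were called. The counts of 38 thus show nothing particular to these contigs. Of the 38, 32 of 34 were called with uniquely placed reads, which 4 contigs lacked. The number was 34 with TMM factors on the listed contigs and 37 with DESeq2 at its own size factors. Among all listed contigs 3168 were called, against 1576 (964 higher and 612 lower) with TMM and 1977 (1227 higher and 750 lower) with DESeq2 at its own size factors, since both set most listed contigs as unchanged. The median log2 change of all listed contigs was 3.34 in the fit reported, 0.40 with TMM and 0.43 with DESeq2 at its own size factors.

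Medians of the log2 changes moved by more than the spread between replicates in several settings. For all 38 contigs, CASP, dirigent, SGN1 and PER64 in this order, they were 9.83, 9.32, 10.58, 7.80 and 7.76 with uniquely placed reads, 7.53, 7.94, 8.12, 7.57 and 6.40 with TMM, 6.62, 6.92, 8.22, 5.85 and 5.30 with DESeq2 at its own size factors, 5.44, 5.89, 6.48, 3.59 and 5.08 with limma on log2(RPKM + 1), and 8.27, 8.96, 8.28, 6.80 and 7.64 with limma on log2(RPKM + 0.1), whose pseudocounts understate the change of low contigs. The dirigent and PER64 medians were 11.15 and 8.23 with DESeq2 at fixed size factors and 10.99 and 8.24 with totals without the listed contigs. Leaving out 1 library at a time gave medians of 9.37 to 9.76 for all 38 contigs, 9.57 to 11.34 for CASP, 10.52 to 10.88 for dirigent, 8.60 to 8.90 for SGN1 and 8.00 to 8.95 for PER64, while the count over all listed contigs was 3078 to 3158. Leaving out an MdMYB68 library moved no contig's fold by over 1.5 times, while leaving out an empty vector library moved 18. With uniquely placed reads, reads per 1000000 mapped reads in MdMYB68 leaves were 10040 on the 38 contigs, 1098 on CASP and 450.1 on PER64, and 0.562 on PER64 in empty vector leaves, against 11551, 1219, 1391 and 1.35 with total reads.

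Same-numbered libraries of the groups did not deviate together over the listed contigs (correlations of -0.10, -0.09, -0.01 and 0.02). Whether the numbers pair the samples cannot be told from a table preselected for a difference between the groups. With a replicate block 2615 contigs were called in the table and 33 of the 38. The few empty vector reads limit the folds, with 15 of 38 contigs at 3 reads or fewer over the group.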
